A study of Sus scrofa with 4 samples.

Results

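Keratins 7, 8, 18 and 19 are the filament proteins of simple, single-layered epithelia. They were followed here in the pig conceptus and in the uterus around it, by taking each row of the deposited gene tables that carries one of the 4 gene symbols. Rows were found for 3 of the 4, KRT7, KRT8 and KRT18, among 21280 genes, and KRT19 is not analysed here. The rows were taken by gene name and not by a measured value, but the members were chosen with earlier results of these data known.

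The study sampled embryos and endometrium of pigs (Sus scrofa) on days 9 and 12 of pregnancy, giving 4 groups of 1 library each, 1 for either tissue on either day. Embryos were digested with papain and dispase, and endometrium with collagenases and dispase, each with DNase I. All suspensions went through red cell lysis and a droplet 3' kit of version 3, which counts the ends of RNA molecules by unique molecular identifiers (UMIs). The labels give no breed, no number of animals and no statement on pooling. Each comparison below therefore sets 1 library against another or 1 class of cells against another within a library. There is no replicate check, no p-value is given, and the 95% intervals cover counting error only.

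Keratin filaments are built from pairs of a type II and a type I chain. KRT7 and KRT8 are type II, KRT18 is type I, and KRT8 with KRT18 is the usual first pair of the early embryo and of most simple epithelia. A chain without a partner is unstable, and trophectoderm, the outer layer of the blastocyst that later forms the placenta, is known for a dense network of these filaments. In the pig the conceptus lengthens from a sphere to a thread between the days sampled here and lies against the luminal epithelium of the uterus without invading it.

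The 3 genes lie together on chromosome 5 in the RefSeq annotation of Sscrofa11.1, the build that the submitters' processing notes name. KRT7 (ENSSSCG00000038966) was annotated at chr5:17553192-17570582, KRT8 (ENSSSCG00000000252) at chr5:18172423-18180277 and KRT18 (ENSSSCG00000000253) at chr5:18217686-18221432. KRT8 and KRT18 were separated by 37408 bases. RefSeq lists its KRT7 record as a long non-coding RNA, and whether the counted KRT7 transcripts code for the protein was not checked here.

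After filtering, 7000 cells of the day 9 embryo, 6671 of the day 12 embryo, 7984 of the day 9 endometrium and 8962 of the day 12 endometrium were kept. Median depth per cell was 11883.5 and 9297 UMIs in the embryo libraries and 2639 and 2233 in the endometrial ones. Between 67 and 156 barcodes of called cells were shared by any pair of libraries, at most 1.70% of a library. Cells were clustered without any keratin gene and named from markers that hold no keratin, so that the class names do not use the genes described. On day 9 the 18 trophectoderm markers summed to 8716 CPM (counts per 1000000 UMIs of the class) in the trophectoderm-like cells and to 315 in the hypoblast-like cells, and on day 12 to 14188 and 1266. The hypoblast is the inner layer that lines the yolk sac.

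KRT8, the most abundant member in every class of 50 cells or more, was highest in the trophectoderm-like cells of day 9. These 652 cells held 133908 KRT8 UMIs, a level of 30222 CPM (95% Poisson interval 30060 to 30384), or 3.02% of all their UMIs. The 5723 hypoblast-like cells of the same library were at 2017 CPM (2007 to 2028), which is 14.98-fold lower. Every one of the trophectoderm-like cells had a KRT8 UMI, with a median of 170 UMIs per cell against 24 in the hypoblast-like cells.

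KRT18, the type I partner, followed the same order. Its level was 22327 CPM (22188 to 22467) in the trophectoderm-like cells of day 9 and 744 CPM (738 to 750) in the hypoblast-like cells, a 30.0-fold difference. KRT8 and KRT18 together made up 5.25% of all UMIs of the trophectoderm-like cells on day 9. These cells were 9.31% of the kept cells of the library and carried 44.3% of its KRT8 UMIs and 59.3% of its KRT18 UMIs. The shares depend on the cell threshold of this library, 2759.47 UMIs. With cells called at 1000 UMIs there were 1132 trophectoderm-like cells, with KRT8 at 25134 CPM and KRT18 at 18656.5 CPM, and 5578 hypoblast-like cells.

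KRT7, the second type II chain, was far less abundant. It reached 679.6 CPM (655.5 to 704.3) in the trophectoderm-like cells of day 9, from 3011 UMIs, and 16.4 CPM (15.5 to 17.4) in the hypoblast-like cells, a 41.3-fold difference. Of the trophectoderm-like cells 93.4% had a KRT7 UMI. In the hypoblast-like cells the share was 18.7% at a median depth of 12577 UMIs, and 1.82% after every cell was thinned to 1000 UMIs, against 46.3% in the trophectoderm-like cells thinned in the same way.

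Free RNA in the droplets could be measured in the day 9 embryo alone, whose matrix held barcodes of every size. The 37240 barcodes of at least 200 and fewer than 500 UMIs, too small to be called cells, had KRT7 at 118.7 CPM, KRT8 at 8128 CPM and KRT18 at 5064 CPM. The hypoblast-like cells of day 9 held KRT7 at 13.9%, KRT18 at 14.7% and KRT8 at 24.8% of these levels. Against the trophectoderm-like cells they held KRT7 at 2.42%, KRT18 at 3.33% and KRT8 at 6.67%, while 10 trophectoderm markers were there at 0.938% to 36.4% of their trophectoderm level, with a median of 1.71%. The 37240 small barcodes held 69986 KRT18 UMIs in all. The 5723 hypoblast-like cells held 54572 in all, with a median of 8 per cell. How much free RNA a droplet with a cell held was not measured. The part of free RNA in the KRT7 and KRT18 UMIs of these cells is therefore not known. They are not read as expression by the class as a whole. KRT8 stood at a higher share of the small-barcode level than both, and the part of free RNA in it was not measured either. KRT18 UMIs per KRT8 UMI numbered 0.739 in the trophectoderm-like cells, 0.623 in the small barcodes and 0.369 (0.365 to 0.372) in the hypoblast-like cells.

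**Figure D1:**
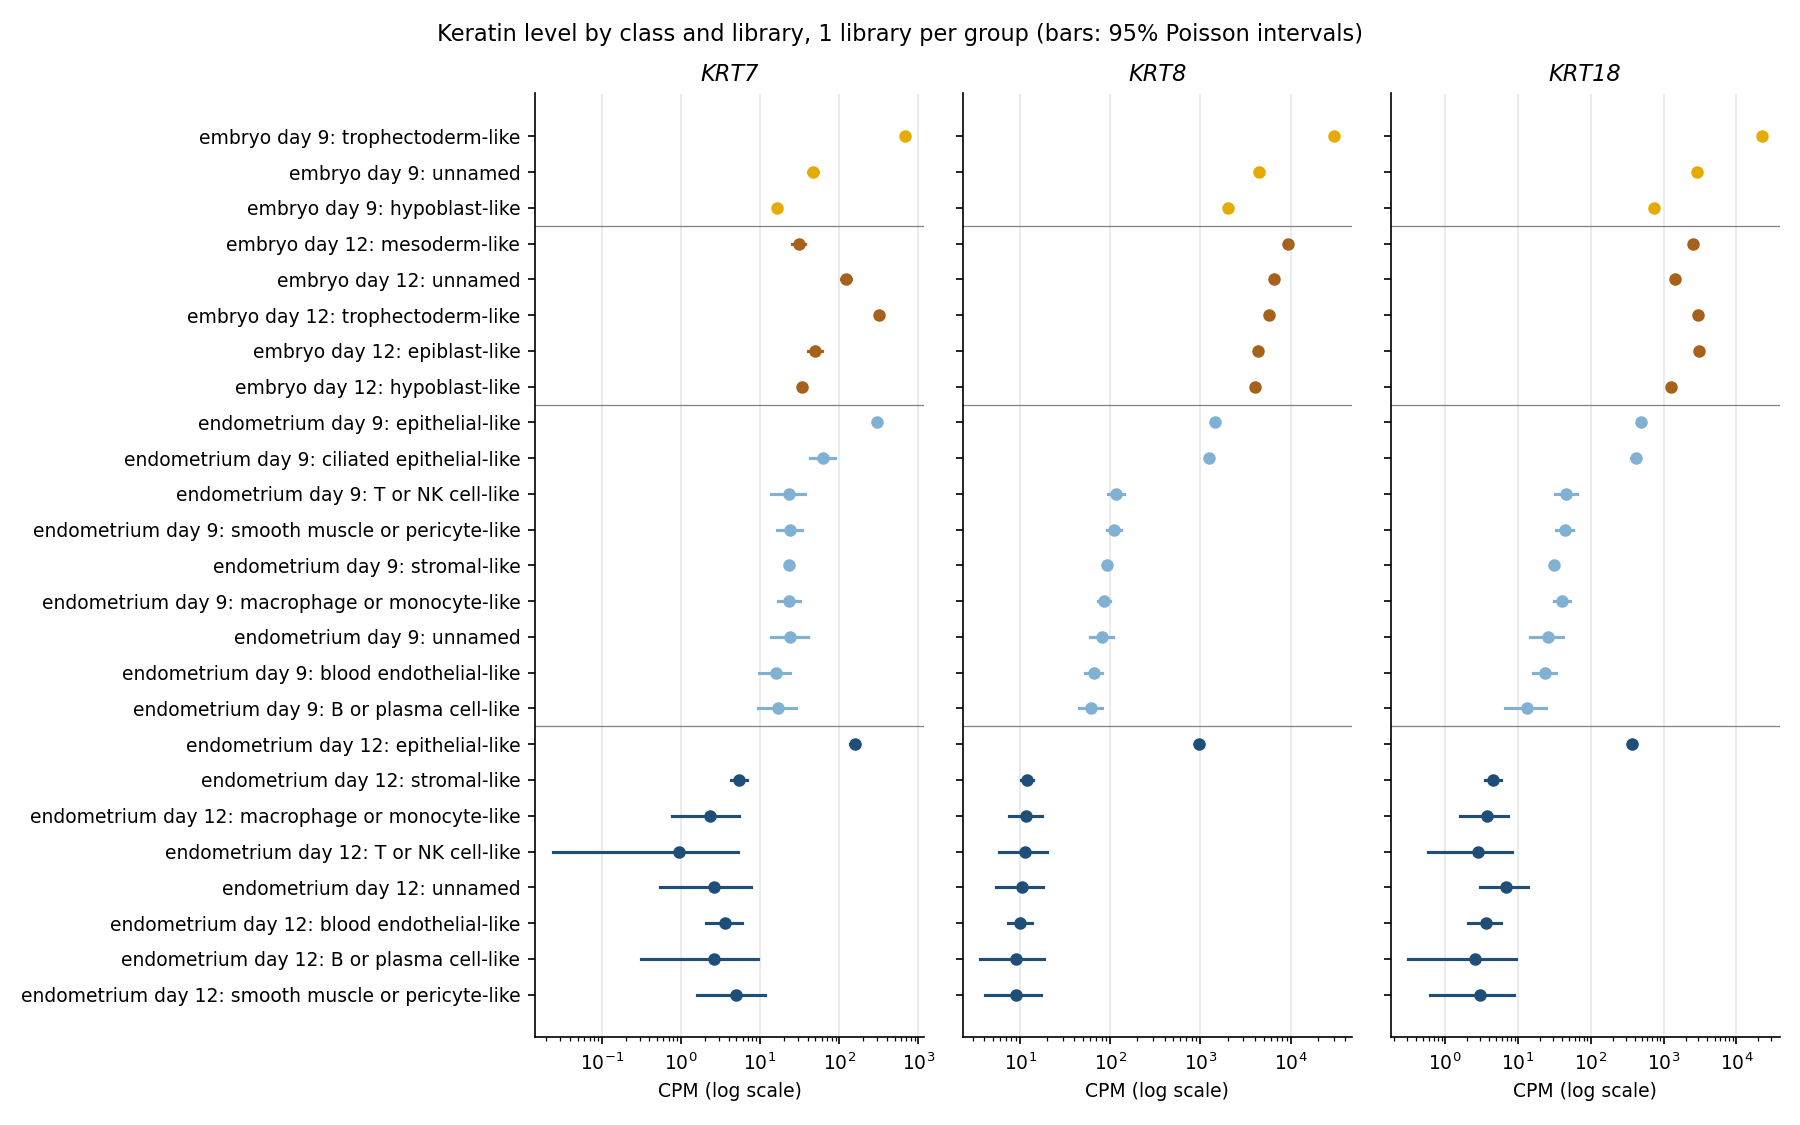
Level of KRT7, KRT8 and KRT18 in CPM (x axis, log scale) in each of the 25 classes of 50 cells or more (y axis), coloured by library, with 95% Poisson intervals as bars. The trophectoderm-like cells of day 9 stand at the top for all 3 genes, and the non-epithelial endometrial classes of day 12 at the bottom.

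On day 12 all 3 keratins were lower in trophectoderm-like cells than on day 9. KRT8 was at 5773 CPM (5745 to 5801) in the 3250 trophectoderm-like cells of day 12, 5.23-fold below day 9. KRT18 was at 2959 CPM (2939 to 2979), 7.55-fold lower. KRT7 was at 316.7 CPM (310.2 to 323.4), 2.15-fold lower.

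On the log2 scale the day 12 over day 9 ratio was -2.39 for KRT8 (-2.40 to -2.38), -2.92 for KRT18 (-2.93 to -2.90) and -1.10 for KRT7 (-1.16 to -1.04). All 3 members were at least 2-fold lower, a size that 16.3% of the 2526 genes at 50 CPM or more on either day reached in that direction and 20.1% in the other (2-fold calls add 1 CPM to each level). Ranked from the lowest ratio, KRT18 was gene 39, KRT8 gene 54 and KRT7 gene 325 of the 2526. Among genes that reached 50 CPM on each day the median ratio was -0.28, and relative to it the 3 ratios were -2.10 for KRT8, -2.63 for KRT18 and -0.82 for KRT7, so that KRT7 stayed under a 2-fold change on that scale. It was also under 2-fold with both days clustered together (-0.99) and with day 9 cells called at 1000 UMIs (-0.84).

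The difference was one of nearly all cells for the 2 abundant chains. On day 9 the middle 90% of trophectoderm-like cells lay between 17468 and 41483 CPM for KRT8, with a median of 30344. On day 12 the same range was 2936 to 9755 CPM, with a median of 5545, and so did not overlap. For KRT18 the ranges were 12416 to 32133 CPM and 890 to 7345 CPM. For KRT7 they overlapped, at 0 to 1524 CPM and 0 to 925 CPM. With all cells thinned to 1000 UMIs, KRT8 and KRT18 were both found in 100% of the trophectoderm-like cells of day 9, and all 3 members in 46.3% of them and in 24.6% on day 12.

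**Figure D2:**
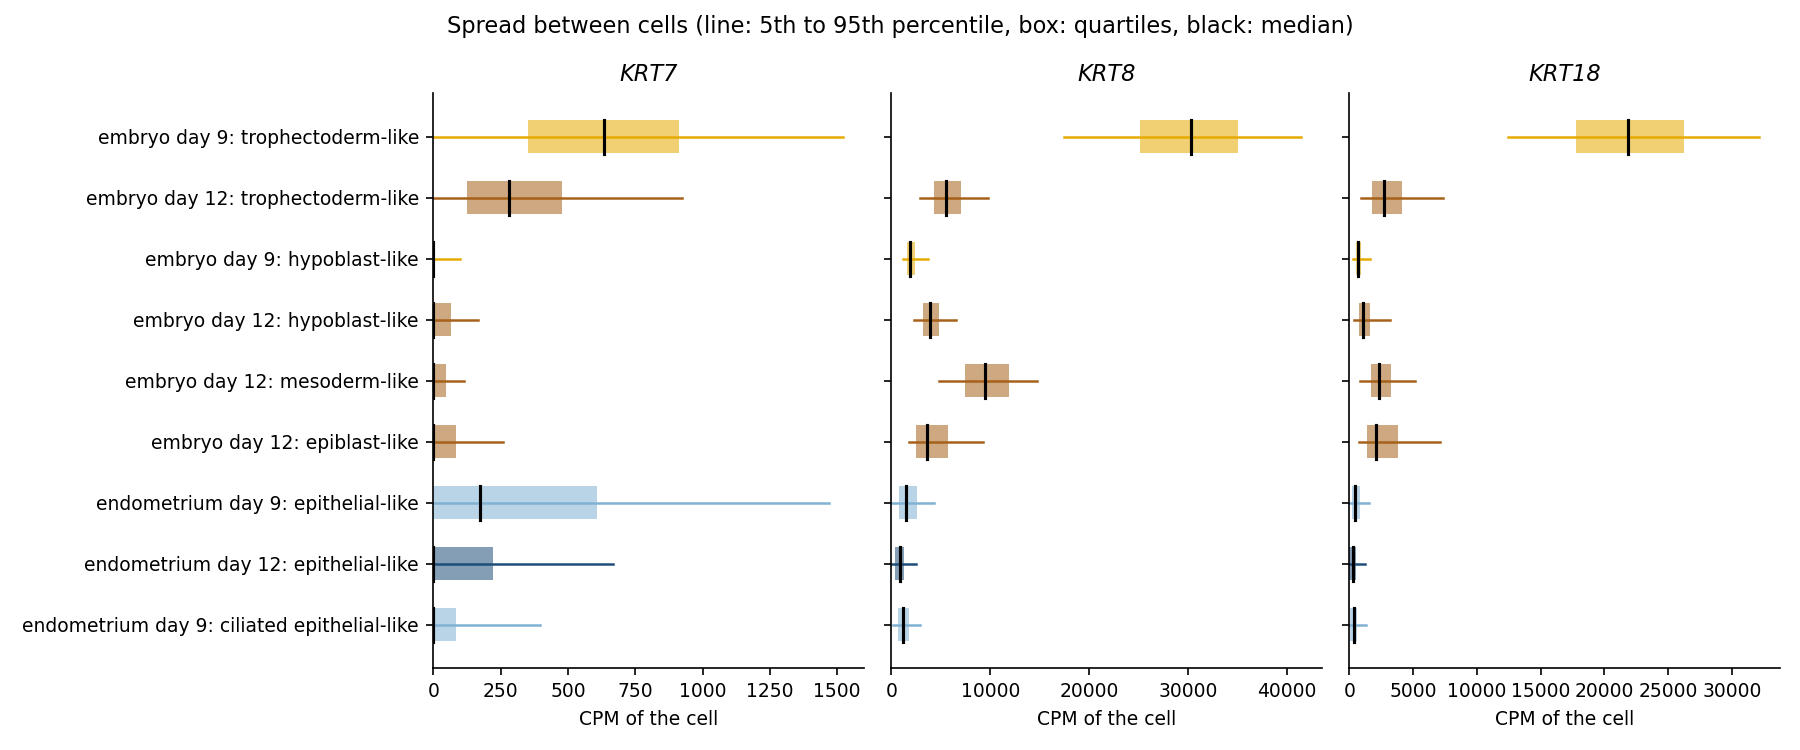
Level per cell of each keratin (x axis, CPM of the cell) in 9 classes (y axis), where the line spans the 5th to 95th percentile, the box the quartiles and the black bar the median. For KRT8 and KRT18 the lines of the day 9 and day 12 trophectoderm-like cells do not overlap, and for KRT7 they do.

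The libraries also differed in other respects beside these ratios. The matrix headers name Cell Ranger 4 for the day 9 embryo and 6.1.2 for the day 12 embryo. Only the day 9 embryo needed a cell call here, at 2759.47 UMIs. Both differences go with the day and cannot be told apart from it. The trophectoderm-like cells had a median of 5700 UMIs and 0.547% mitochondrial UMIs on day 9, against 8215.5 UMIs and 3.63% on day 12. Of the genes known to be induced by tissue dissociation, 10 of the 10 at 5 CPM or more were at least 2-fold higher on day 12, as 29.3% of all 7773 genes at that level were, with a median log2 ratio of 3.47. FOS was at 59.4 and 1086 CPM, and EGR1 at 7.67 and 412 CPM. The part of these differences in the keratin ratios was not tested. Among cells of 4000 to 8000 UMIs, 310 on day 9 and 790 on day 12, the ratios were -0.97 for KRT7, -2.33 for KRT8 and -2.65 for KRT18. Among cells with at most 1% mitochondrial UMIs, 528 on day 9 and 260 on day 12, they were -1.005, -2.05 and -2.89. Both subsets were chosen after the data were seen.

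In hypoblast-like cells the direction was the opposite, and the levels of all 3 keratins were higher on day 12. KRT8 went from 2017 CPM to 4058 CPM (4035 to 4081) in 2542 cells, 2.01-fold higher. KRT18 went from 744 to 1275 CPM (1262 to 1288), 1.71-fold higher. KRT7 went from 16.4 to 34.1 CPM (32.0 to 36.2), 2.07-fold higher, at levels that were 2.42% and 10.8% of the trophectoderm-like level of the same library. The ratios of KRT7 and KRT18 both start from a day 9 level not read as expression, and so they are given as values and not as a change in these cells. Relative to trophectoderm-like cells, the day 9 KRT8 level also lay inside the range of the 10 trophectoderm markers. The part of free RNA in it was not measured, so the KRT8 ratio is given as a value too.

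The log2 ratios were 1.01 for KRT8 (0.997 to 1.02), 0.78 for KRT18 (0.76 to 0.80) and 1.05 for KRT7 (0.93 to 1.17). KRT8 reached 2-fold, as 9.64% of 2645 genes at 50 CPM or more on either day did in that direction (9.57% in the other). KRT7, below 50 CPM on both days, also reached it, beside 12.1% of 8237 genes at 5 CPM or more (8.81% in the other direction). Both members stood just above 2-fold. KRT8 was just under it with both days clustered together (0.99), at 10% mitochondrial UMIs (0.98) and as a mean over cells (0.98). Relative to the median ratio of genes that reached 50 CPM on each day, -0.16, the values were 1.17 for KRT8, 0.94 for KRT18 and 1.21 for KRT7. Among cells of 4000 to 8000 UMIs the KRT8 ratio was 0.79 and the KRT18 ratio 0.62, both under 2-fold. In these hypoblast-like cells depth was 12577 UMIs on day 9 and 11115.5 on day 12, the mitochondrial share was 3.47% and 3.41%, and 7 of 10 dissociation-induced genes were at least 2-fold higher on day 12, against 12.1% of 8237 genes at 5 CPM or more. The part of these genes in the result was not tested.

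The trophectoderm-like and hypoblast-like cells lay closer together on day 12 than on day 9. KRT8 was 1.42-fold higher in trophectoderm-like cells than in hypoblast-like cells of day 12, against 14.98-fold on day 9. KRT18 was 2.32-fold higher, against 30.0-fold, and KRT7 9.30-fold higher, against 41.3-fold. The day 9 hypoblast-like levels of KRT7 and KRT18 are not read as expression, so their day 9 folds are given as values. The part of free RNA in the day 9 hypoblast-like level of KRT8 was not measured, so its day 9 fold is a value too. On day 12 KRT8 in hypoblast-like cells was 70.3% of the trophectoderm-like level, while 11 trophectoderm markers were there at a median of 6.43% of theirs, with a range of 3.99% to 128%. KRT7, 9.30-fold below the trophectoderm-like level, stood nearer to that median, and it is not read as expression in hypoblast-like cells of day 12 either.

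**Figure D3:**
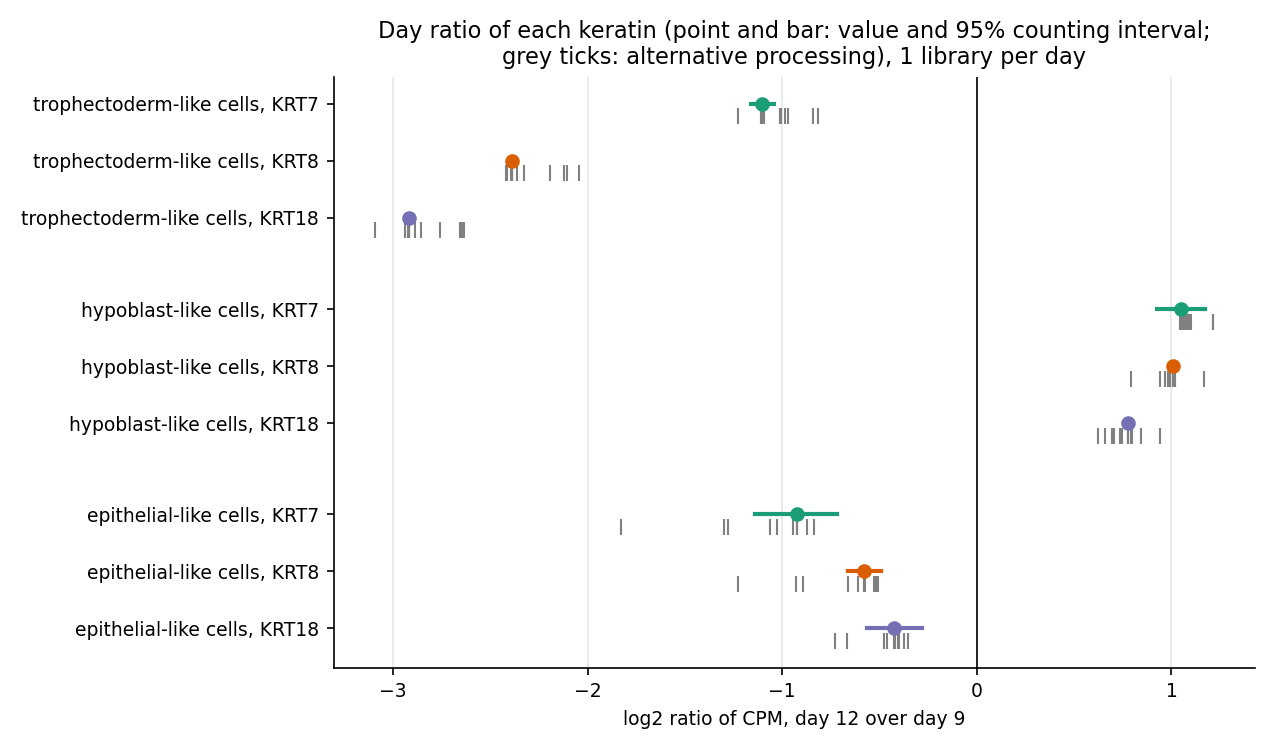
Log2 ratio of the CPM, day 12 over day 9 (x axis), of each keratin in trophectoderm-like, hypoblast-like and epithelial-like cells (y axis), with 95% counting intervals as bars and the values under alternative processing as grey ticks. All ticks for trophectoderm-like and epithelial-like cells lie below 0 and all ticks for hypoblast-like cells above it.

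Among the rarer embryonic cells of day 12, KRT8 was highest in the mesoderm-like cells, which form the middle layer of the embryo and its membranes. These 198 cells had KRT8 at 9436 CPM (9337 to 9535), 1.63-fold above the trophectoderm-like cells of their library and 2.33-fold above the hypoblast-like cells. KRT18 was at 2559 CPM (2508 to 2611), 1.16-fold below the trophectoderm-like cells. KRT7 was at 30.7 CPM (25.4 to 36.9), which the counting error did not separate from the hypoblast-like level (ratio 0.90, 0.74 to 1.10). It was 9.71% of the trophectoderm-like level, where 11 trophectoderm markers had a median of 5.14% and a range of 2.85% to 62.5%, and it is not read as expression.

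The same cells were set apart by VIM, vimentin, the filament protein of mesenchyme. VIM was at 812 CPM in them, at 4.83 CPM in the trophectoderm-like cells and at 3.77 CPM in the hypoblast-like cells of day 12. Transcripts of KRT8 and VIM were thus both high in 1 class, whose depth was a median of 19119.5 UMIs per cell.

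The 141 epiblast-like cells, the layer that forms the embryo proper, carried the pair at about the trophectoderm level for KRT18 and somewhat less for KRT8. KRT18 was at 3060 CPM (2981 to 3140), 1.03-fold the trophectoderm-like level, and KRT8 at 4299 CPM (4206 to 4393), 1.34-fold below it. KRT7 was at 49.3 CPM (39.8 to 60.4), or 15.6% of the trophectoderm-like level, against 2.02% to 23.3% with a median of 11.9% for the 11 markers, and it is not read as expression either. On day 9 only 21 epiblast-like cells were found, with KRT8 at 2754 CPM, KRT18 at 2095 CPM and KRT7 at 21.9 CPM from 7 UMIs.

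Within the trophectoderm-like cells of day 12 the members varied less than between days. The largest cluster, 1738 cells led by SGPP1, SLC15A2 and CTBS, had KRT8 at 5492 CPM and KRT18 at 2591 CPM. A cluster of 1151 cells with a median of 3971 UMIs, led by INS, TMEM107 and ACTB, had KRT8 at 6291 CPM and KRT18 at 4290 CPM, 1.66-fold above the largest cluster. A cluster of 80 cells led by the interferon-induced genes MX1 and ISG15 held the members close to the level of the largest cluster, with ratios to it of 1.07 (0.94 to 1.21) for KRT7, 1.03 (1.002 to 1.06) for KRT8, whose interval lies just above equality, and 1.04 (0.999 to 1.08) for KRT18.

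Between hypoblast-like clusters the KRT18 level varied more than the KRT8 level. On day 9 a cluster of 1135 cells led by SULF1, SLC39A8 and HAPLN1 had KRT8 at 2859 CPM and KRT18 at 1157 CPM. These levels were 1.56-fold and 1.85-fold above the largest hypoblast-like cluster, while KRT7 did not differ beyond the counting error (0.96, 0.81 to 1.13). The day 9 levels of KRT7 and KRT18 in hypoblast-like cells are not read as expression, so their folds between these clusters are given as values. On day 12 a cluster of 94 cells led by TTR, FGB and APOB, genes of secreted plasma proteins, had KRT18 at 3740 CPM, 3.62-fold above the largest cluster. KRT8 in that cluster was 1.58-fold higher, and KRT7 was not separated from it by the counting error (1.09, 0.70 to 1.62).

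A small unnamed cluster of the day 12 embryo had a different mix of the members. Its 20 cells, led by SPINK9, THY1 and CDSN, had KRT7 at 1631 CPM (113 UMIs), KRT8 at 1602 CPM and KRT18 at 736 CPM. KRT7 was thus 5.71-fold above the largest trophectoderm-like cluster, while KRT8 was 3.43-fold and KRT18 3.52-fold below it. HAND1, a trophectoderm marker, was at 101 CPM in these cells against 875 CPM in the rest of the library. UABP-2, which was at 327 CPM in the largest epithelial-like cluster of the day 12 endometrium, was at 678 CPM in them against 0.14 CPM. What these cells are was not tested.

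In the endometrium the members marked the epithelium. The 673 epithelial-like cells of day 9 had KRT8 at 1453 CPM (1416 to 1490), KRT18 at 487.5 CPM (466 to 509) and KRT7 at 299.5 CPM (283 to 317). KRT8 was 15.6-fold, KRT18 15.6-fold and KRT7 13.02-fold above the stromal-like cells of the library. Against the trophectoderm-like cells, which come from other libraries and another digestion, KRT8 and KRT18 were lower in the epithelium on both days, while KRT7 in day 9 epithelium (299.5 CPM) and day 12 trophectoderm (316.7 CPM) had overlapping intervals.

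The mix of the members also differed between conceptus and uterus. KRT7 made up 13.4% of the UMIs of the 3 members in epithelial-like cells of day 9 and 10.6% on day 12. In trophectoderm-like cells it made up 1.28% on day 9 and 3.50% on day 12, and in mesoderm-like cells 0.26%. In the plot of KRT7 against KRT8 the epithelial-like clusters lie to the left of the trophectoderm-like ones, since their KRT8 level was lower.

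**Figure D4:**
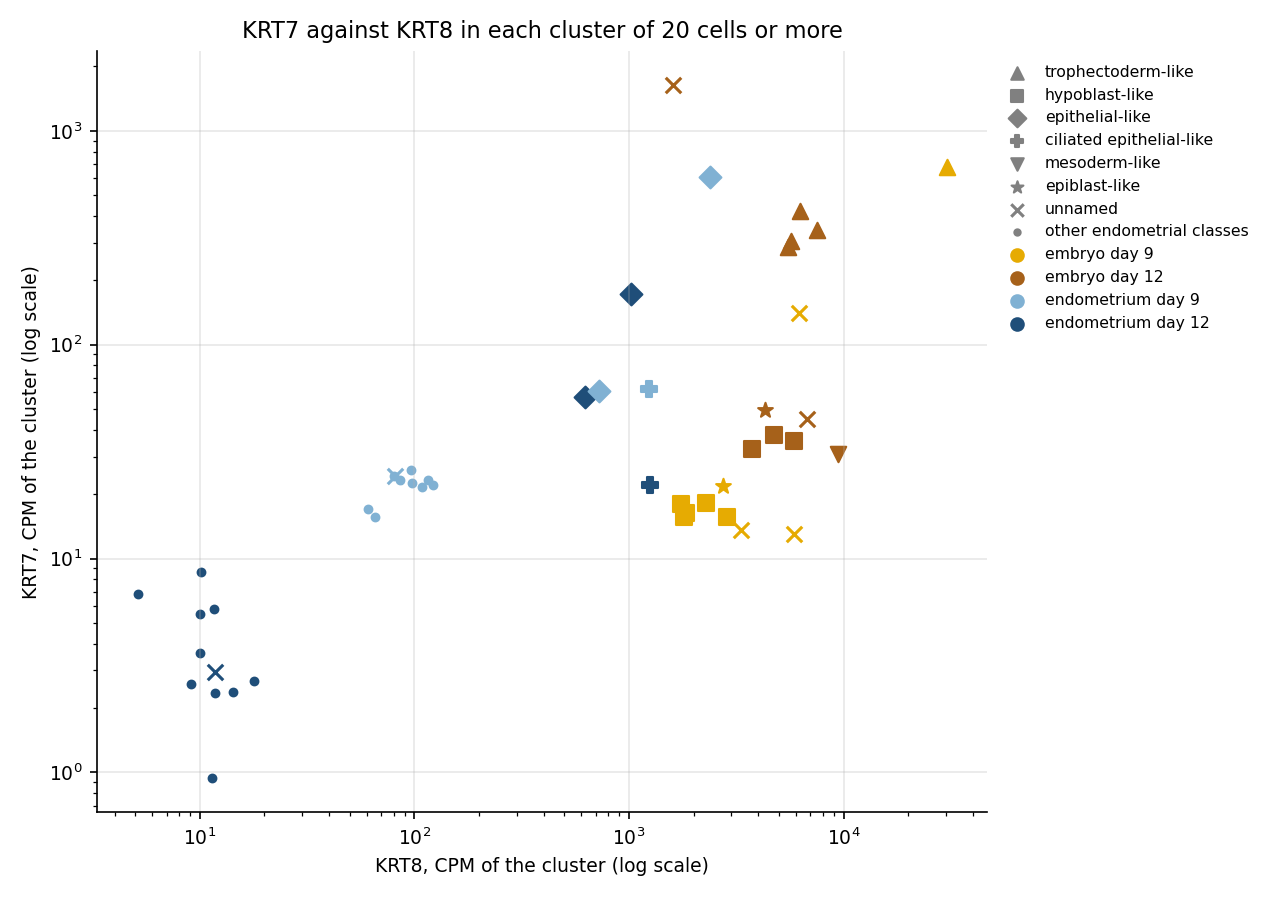
KRT7 (y axis) against KRT8 (x axis), both in CPM on log scales, in each cluster of 20 cells or more, with the shape giving the class and the colour the library. Hypoblast-like clusters have KRT7 at 15.6 to 37.8 CPM at KRT8 levels above every epithelial-like cluster but 1, and the epithelial-like clusters of the endometrium have KRT8 between 627 and 2396 with KRT7 between 57.0 and 610.

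The epithelial-like cells of day 9 fell into 2 clusters that differed most in KRT7. The cluster of 373 cells led by CYP26A1, DEFB1 and CLDN8 had KRT7 at 610 CPM, and the cluster of 300 cells led by ADAMTS18, SORL1 and CCL28 had it at 61.0 CPM, a 10.0-fold difference (8.39 to 12.0). KRT8 differed 3.29-fold, at 2396 and 727 CPM. KRT18 differed 1.54-fold, at 607 and 395 CPM.

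On day 12 the 2 epithelial-like clusters differed in the same order. The 296 cells led by CD24, FXYD3 and TRPV5 had KRT7 at 172 CPM and the 59 cells led by MEP1B, ACP5 and UABP-2 at 57.0 CPM from 10 UMIs, a ratio of 3.02 (1.61 to 6.38). KRT18 was not separated between them by the counting error (1.09, 0.83 to 1.46). The 91 ciliated epithelial-like cells of day 9 had KRT7 at 62.3 CPM, close to the 61.0 CPM of the low-KRT7 cluster and 4.81-fold below both other epithelial-like clusters together. Their KRT8 was 1.18-fold and their KRT18 1.17-fold below those clusters together. On day 12 the 43 ciliated cells had KRT7 at 22.1 CPM from 4 UMIs, KRT8 at 1255 CPM and KRT18 at 199 CPM.

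All 3 members were lower in the 355 epithelial-like cells of day 12 than in those of day 9. KRT8 was at 973 CPM (922 to 1026), KRT18 at 363 CPM (333 to 396) and KRT7 at 157.7 CPM (137.7 to 179.8). The log2 ratios were -0.58 (-0.66 to -0.49), -0.42 (-0.57 to -0.28) and -0.93 (-1.14 to -0.72). None of the 3 reached a 2-fold change, which 12.2% of 3299 genes did in that direction and 15.1% in the other. KRT7 passed it with both days clustered together (-1.06), at 10% mitochondrial UMIs (-1.03), as a mean over cells (-1.28) and in cells of 4000 to 8000 UMIs (-1.30), and KRT8 and KRT18 did not under these. The summed level of the 12 epithelial markers went the other way, from 3212 to 6141 CPM.

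The ratios depended on which epithelial-like clusters were compared. Between the largest cluster of each day alone the ratio was -1.83 for KRT7, -1.23 for KRT8 and -0.73 for KRT18. When both days were clustered together, the 1 epithelial-like cluster with at least 50 cells of each day, 277 cells of day 9 and 57 of day 12, had KRT7 at 59.6 and 58.9 CPM (log2 ratio -0.02, -1.12 to 0.92). In it KRT8 was at 724 and 648 CPM (-0.16, -0.45 to 0.12) and KRT18 at 399 and 347 CPM (-0.20, -0.61 to 0.18), so that no day difference was detectable there at this depth.

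In the non-epithelial classes of the endometrium the members were low, and lower in the day 12 library. On day 9 KRT8 lay between 61.0 and 116 CPM in 6 such named classes, KRT18 between 13.4 and 46.4 CPM and KRT7 between 15.7 and 23.8 CPM. On day 12 the ranges were 8.96 to 11.9, 2.58 to 4.58 and 0.94 to 5.48 CPM. In the stromal-like cells the day 9 levels were 6.40% of the epithelial level for KRT8, 6.42% for KRT18 and 7.68% for KRT7, inside the 2.79% to 10.6% of 8 epithelial markers.

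On day 12 the stromal-like levels were 1.23% for KRT8, 1.26% for KRT18 and 3.47% for KRT7, against 0.520% to 1.84% for 9 markers. All 3 members were at least 2-fold lower on day 12 in stromal-like cells, while the 12 epithelial markers summed there to 195 and 76.8 CPM. Of 3135 genes at 50 CPM or more on either day, 6.16% were at least 2-fold lower. KRT8, at 93.0 CPM on day 9, belongs to that set. KRT7 (23.0 and 5.48 CPM) and KRT18 (31.3 and 4.58 CPM) were below 50 CPM on both days, so the share does not cover them. The KRT8 and KRT18 levels were within the range of the other epithelial genes in the same cells on both days, and so they are not read as expression or as a change between days. KRT7 on day 12, at 5.48 CPM, was above that range. After thinning to 1000 UMIs, 1.21% to 2.60% of the cells of these 6 classes had a KRT8 UMI on day 12, against 54.1% of the epithelial-like cells.

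The balance of the pair, KRT18 UMIs per KRT8 UMI, differed between classes and days. It was 0.739 (0.733 to 0.745) on day 9 and 0.513 (0.508 to 0.517) on day 12 in trophectoderm-like cells. In hypoblast-like cells it was 0.369 (0.365 to 0.372) and 0.314 (0.311 to 0.318). The day 9 KRT18 level of hypoblast-like cells is not read as expression, and the small barcodes of that library had 0.623. The hypoblast-like ratio of day 9 is therefore given as a value only. Mesoderm-like cells had 0.271 and epiblast-like cells 0.712 on day 12. KRT18 was below KRT8 in every class of 50 cells or more.

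In the endometrium the ratio was 0.336 on day 9 and 0.373 on day 12 in epithelial-like cells, and it differed more between clusters than between days. The clusters with high KRT7 had 0.254 and 0.359, and those with low KRT7 had 0.543 and 0.536. Between single cells, KRT8 and KRT18 went together in trophectoderm-like cells, with Spearman's rho of 0.634 on CPM across the 652 cells of day 9 and 0.620 across the 3250 cells of day 12, where the cells share a library. In hypoblast-like cells, whose day 9 KRT18 level is not read as expression, the values were 0.438 and 0.488.

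**Figure D5:**
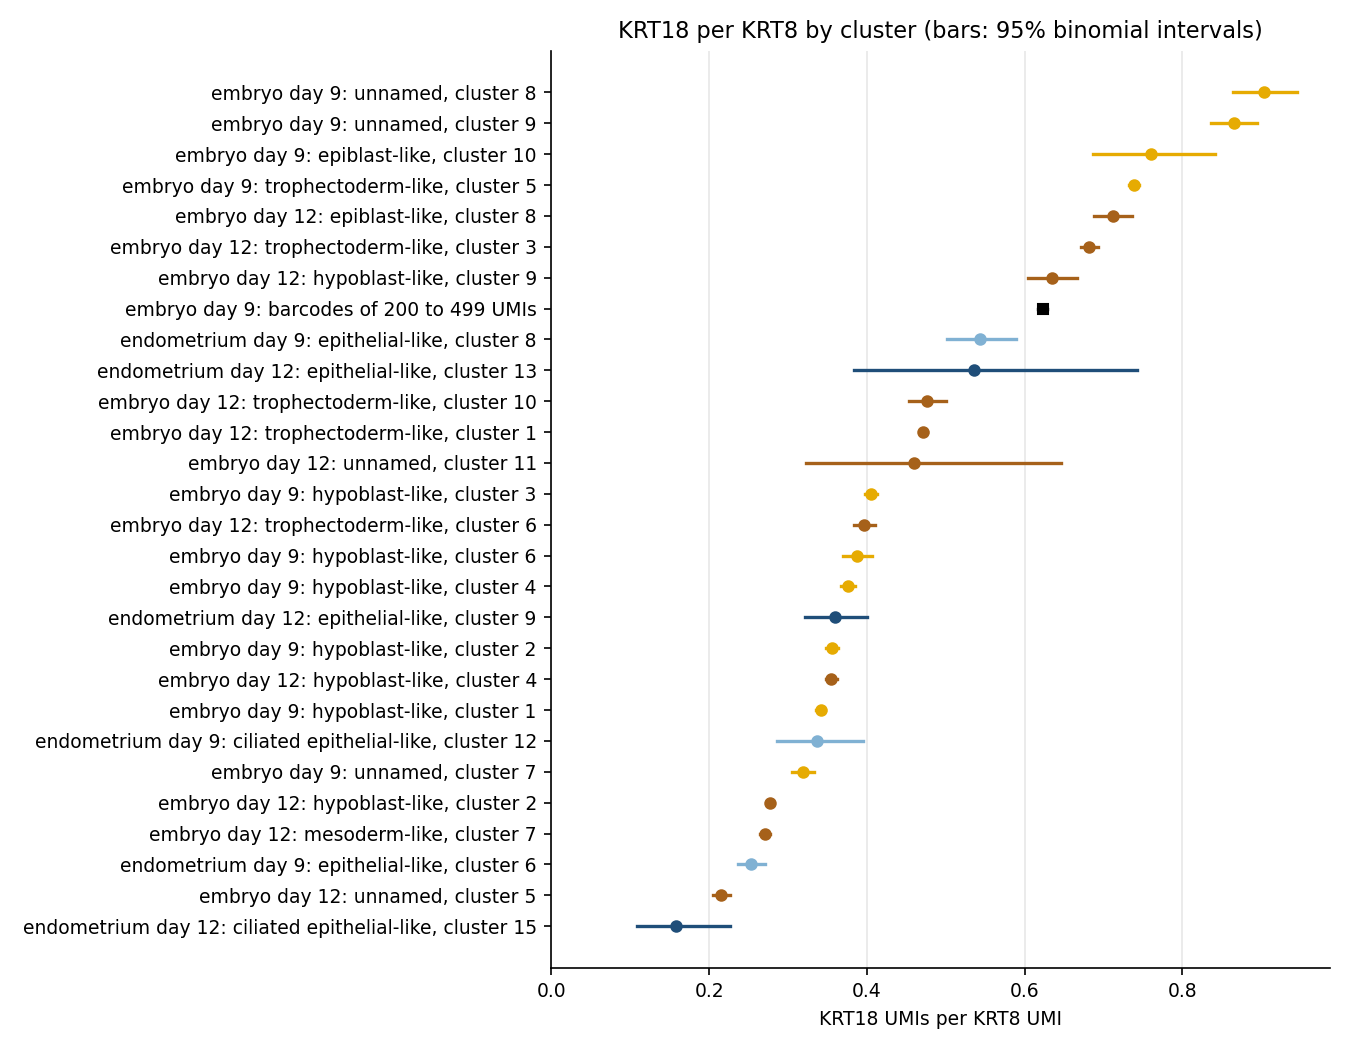
KRT18 UMIs per KRT8 UMI (x axis) in each epithelial or embryonic cluster (y axis), coloured by library, with 95% binomial intervals as bars and the small barcodes of the day 9 embryo as a black square. The trophectoderm-like cluster of day 9 lies to the right of the day 12 ones, and most hypoblast-like clusters lie to the left of them.

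Of the 35 other keratin genes in the files, 5 reached 5 CPM in any class of 50 cells or more and 2 reached 50 CPM, both type I chains. In trophectoderm-like cells the row named KRT14 was at 919 CPM on the earlier day and 1781 CPM on the later, 1.94-fold higher while KRT8 and KRT18 were lower. It was at 644 and 1310 CPM in hypoblast-like cells, at 2246 CPM in mesoderm-like cells and at 220 and 75 CPM in epithelial-like cells. The name KRT14 is the files' own and was not checked against a sequence, so that these values may belong to another type I keratin. KRT10 was at 35.9 and 16.3 CPM in trophectoderm-like cells and at 176 and 109 CPM in epithelial-like cells. No other type II keratin of the list reached 5 CPM in trophectoderm-like or hypoblast-like cells.

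Genes of the desmosome, the junction to which keratin filaments attach, were counted at 5 CPM or more on either day. The same list also holds plakin genes such as PLEC and DST and the integrin chains ITGA6 and ITGB4, so the counts are not of desmosome genes alone. In trophectoderm-like cells 5 of the 13 were at least 2-fold higher on day 12 and 3 lower, against 29.3% and 10% of all genes at that level, with a median log2 ratio of 0.79 against 0.31. ITGA6, an integrin chain of the basal side, went from 8.80 to 115 CPM, and PKP3, a plakophilin of the desmosome plaque, from 86.0 to 39.2 CPM. In hypoblast-like cells 5 of 14 were higher and 1 lower, against 12.1% and 8.81% of all genes (median 0.75 against -0.16), with DSC2, a desmosomal cadherin, at 14.4 and 128 CPM. In epithelial-like cells 1 of 14 was higher and none lower, against 11% and 15.1% of 10490 genes (median 0.20 against -0.16), and DSP, which ties keratin to the desmosome, was at 160 and 94.4 CPM.

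Of the transcription factors of simple epithelia, 7 of 15 in trophectoderm-like cells were at least 2-fold higher on day 12 and 1 lower, beside the 29.3% and 10% of all genes at 5 CPM or more. TFAP2A was at 31.8 and 104 CPM and OVOL1 at 17.4 and 81.2 CPM, while GATA3 was at 97.5 and 191 CPM and CDX2 at 77.2 and 39.9 CPM. In hypoblast-like cells 5 of 10 were higher and 2 lower, beside 12.1% and 8.81%, with ETS2 at 33.3 and 191 CPM. In epithelial-like cells 2 of 11 were higher, beside 11%, OVOL1 from 58.8 to 324 CPM and ELF3 from 86.3 to 287 CPM, on a day when the members were lower.

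Of 10 genes for proteins that bind or fold keratins, 2 were at least 2-fold higher in trophectoderm-like cells and none lower, beside the same 29.3% and 10%, with a median log2 ratio of 0.02, and none of the 10 in hypoblast-like or epithelial-like cells reached 2-fold. HSPB1, a small heat shock protein, was at 106 and 728 CPM in trophectoderm-like cells, and it is also on the list of dissociation-induced genes. HSPA8, a constitutive chaperone, was at 2682 and 1610 CPM. Of other filament genes, LMNA, a nuclear lamin, was at 237 and 478 CPM in trophectoderm-like cells, and VIM in epithelial-like cells at 292 and 582 CPM.

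Across the 25 classes the level of KRT8 followed that of KRT18 most closely among 6673 genes, with Pearson's r of 0.993 on log2(CPM + 1). The next genes for KRT8 were PKP2 (0.933), a plakophilin, and KRT14 (0.933), then NSDHL (0.923) and UQCR11 (0.922), and the same 4 stood next for KRT18. KRT7 was followed by ATP6V1G3 (0.943), RAB25 (0.903), the unnamed gene ENSSSCG00000035724 (0.876), CLDN7 (0.868) and ARHGAP8 (0.862). CLDN7 is among the markers used to name epithelial cells. These values describe classes that share libraries and depth, and they carry no test. Of the 25 classes 14 are non-epithelial endometrial ones, with KRT8 at 116 CPM or less and KRT18 at 46.4 CPM or less. The part of free RNA in those levels was not measured. Over the 8 embryonic classes alone KRT8 and KRT18 had r of 0.893 and KRT7 and KRT8 0.767.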

How the data were processed

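The deposited matrices hold raw UMI counts per gene and cell barcode from 4 libraries. The submitters' processing notes give Cell Ranger 6.1.2 and the build Sscrofa11.1, and the file headers name Cell Ranger 4 for the day 9 embryo and 6.1.2 for the others. The library totals were 109449139, 66992264, 27250593 and 27589239 UMIs (day 9 and day 12 embryo, day 9 and day 12 endometrium). The day 9 embryo matrix held 657829 barcodes, so 7011 cells were called there at 0.1 of the 99th percentile of the 3000 largest totals (2759.47 UMIs). Cells with 1000 UMIs, 500 genes and at most 20% mitochondrial UMIs were kept. The doublet caller marked 1, 93, 0 and 0 cells, so it did not work in 3 libraries. Each library was clustered alone (scanpy 1.11.5, 2000 variable genes without keratins, 30 components, Leiden resolution 0.6) and classes were named from marker lists, so names may differ from the submitters' own. UMIs were summed per class and scaled to CPM, with exact Poisson intervals for levels and exact binomial intervals for ratios and shares. The computation of ratios was tested on simulated counts.

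Each member was named, with up to 4 members per gene list by level at 20 CPM or more, the 5 genes most correlated with each member over classes, and 5 leading genes per cluster. VIM, HAND1 and UABP-2, where given for single clusters or classes, and the unnamed 20-cell cluster were chosen after their values were seen. The members and lists were chosen with earlier results of these data known. List members below 5 CPM on both days were not counted. Of 112 list genes 97 and of 207 marker genes 185 matched a symbol in the files, which pair 14811 of 21280 genes with one; 694 symbols were added from the RefSeq table.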

Additional observations from a re-analysis of the deposited data

Results flagged for a closer look

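The day ratio of each member had opposite signs in the 2 main embryonic classes, and the difference between the classes was not tested, since each day is 1 library. The log2 ratio of KRT7 was -1.10 in trophectoderm-like and 1.05 in hypoblast-like cells. For KRT8 the values were -2.39 and 1.01, and for KRT18 -2.92 and 0.78. The day 9 hypoblast-like levels of KRT7 and KRT18 are not read as expression, and the part of free RNA in that of KRT8 was not measured.

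Barcodes of the day 9 embryo with at least 200 and fewer than 500 UMIs, below the cell threshold of 2759.47 UMIs and left out of all class levels, carried the members at 118.7 CPM for KRT7, 8128 CPM for KRT8 and 5064 CPM for KRT18, more than the hypoblast-like cells of that library for each.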

How the results depend on the processing

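Of 111 day ratios under alternatives, 59 stayed inside the counting interval of the reported value, 52 left it with the direction kept, and 0 changed direction. The alternatives on single clusters, on depth windows and at 1% mitochondrial UMIs were chosen after seeing the data. The cause of the shifts was not tested. No paired analysis was possible because each group holds 1 library, and for the same reason no replicate was left out.

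For trophectoderm-like cells, in the order KRT7, KRT8 and KRT18, the log2 ratios were -0.99, -2.19 and -2.86 with both days clustered together, -0.84, -2.12 and -2.66 with day 9 cells called at 1000 UMIs, -0.82, -2.10 and -2.63 with median-of-ratios scaling and -1.01, -2.36 and -2.76 as means over cells. They were -1.23, -2.42 and -3.09 without day 12 cluster 3, -0.97, -2.33 and -2.65 in cells of 4000 to 8000 UMIs and -1.005, -2.05 and -2.89 at 1% mitochondrial UMIs. KRT18 was -2.94 at 10% mitochondrial UMIs, and KRT8 -2.41 without day 12 cluster 6.

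For hypoblast-like cells median-of-ratios scaling gave 1.21, 1.17 and 0.94. KRT8 and KRT18 were 1.02 and 0.84 at 2000 UMIs per cell, 0.98 and 0.69 at 10% mitochondrial UMIs, 0.99 and 0.74 with both days clustered together, 0.94 and 0.66 without day 9 cluster 1, 0.97 and 0.75 without day 9 clusters 4 and 6, 0.99 and 0.71 without day 12 cluster 9, and 0.79 and 0.62 in cells of 4000 to 8000 UMIs. With marked doublets kept KRT7 was 1.21 and KRT18 0.80, and as a mean over cells KRT8 was 0.98.

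For epithelial-like cells the ratios were -1.28, -0.89 and -0.67 as means over cells and -1.83, -1.23 and -0.73 between the largest clusters. KRT7 and KRT8 were -1.30 and -0.93 in cells of 4000 to 8000 UMIs, and KRT8 was -0.66 with both days clustered together. With a 10 CPM minimum, 3 of 5 genes most like KRT7 and 4 of 5 for KRT8 and for KRT18 were shared with the reported lists.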
